A study of Mus musculus with 24 samples.

Results

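The genes described here encode 10 transcription factors of the Myc and Max network, namely Myc, Mycn, Mycl, Max, Mxd1, Mxd4, Mxi1, Mnt, Mlx and Mga. They were taken by gene symbol from a table of 54532 mouse genes measured by RNA-seq in 24 kidney libraries, by a rule that reads the symbol and no measured value. The set itself was proposed with earlier results of these data known. All 10 symbols were found, and all 10 were among the 22570 genes that passed the filter on expression (mean log2 CPM of at least -3, where CPM are counts per 1000000 counts of a library).

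Proteins of this network bind DNA as pairs through a basic helix-loop-helix leucine zipper domain. Max is the shared partner. Paired with Myc, Mycn or Mycl it activates genes of ribosome production, metabolism and growth, and paired with Mxd1, Mxd4, Mxi1, Mnt or Mga it represses many genes with the same DNA element, the E-box CACGTG. Mlx is a parallel partner that binds the sugar-sensing factors encoded by Mlxip and Mlxipl, and also some Mxd proteins. In the kidney, forced expression of Myc in tubules of mice is known to cause cysts.

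Each library came from the whole kidney of 1 C57BL/6 mouse at 18 days of age. All mice shared RC, an allele of Pkd1 with an amino acid change that leaves less mature polycystin-1. The question was how preventing repression of that allele through its miR-17 motif affects the cystic kidney. In RC/+ mice the second Pkd1 allele was floxed but intact, and in RC/- mice Ksp-Cre, which acts in kidney tubule epithelium, had inactivated it. In the lines D18 (founder 3) and D53 (founder 2) the RC allele lacked its miR-17 motif, which CRISPR/Cas9 editing had taken out of the 3′ UTR. Each edited line descended from 1 founder. Groups were RC/+, RC/+ D18 and RC/+ D53 (n = 3 each, labelled control) and RC/-, RC/- D18 and RC/- D53 (n = 5 each, labelled cystic). Under the study's breeding scheme the RC/- mice carry Cre and the RC/+ mice do not, so effects of Cre itself and of the cystic genotype cannot be told apart.

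The E-box is shown with 10 bases on each side where it occurred once in the promoter window of a member, because it is the element through which network proteins act, also on genes of the network itself. Sequences were read 5′ to 3′ on the strand of the gene from RefSeq promoter windows of GRCm38.p6 (250 bases before to 50 after the start site), with the motif in capitals. The motif is a palindrome, so a search of one strand covers both. A match describes the sequence and is not evidence of binding. Of the 10 members 9 had a window in the table and Myc had none, and 4 of the 9 held the motif.
Max (chr12:76962236-76962261, minus strand): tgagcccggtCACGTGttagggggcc
Mxd4 (chr5:34187914-34187939, minus strand): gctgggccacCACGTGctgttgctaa
Mnt (chr11:74830791-74830816, plus strand): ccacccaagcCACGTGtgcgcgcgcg
Mlx (chr11:101087240-101087265, plus strand): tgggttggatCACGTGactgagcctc

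These 4 motifs began 3, 219, 123 and 40 bases before the start sites of Max, Mxd4, Mnt and Mlx. Over all windows the motif occurred in 2349 of 32851 (7.15%), and over genes in 2187 of 27025 (8.09%). Mycn, Mycl, Mxd1, Mxi1 and Mga had no CACGTG in their windows, which says only that these letters were absent there. Among 23 Myc-activated target genes with a window, 6 held it, and Cdk4, which encodes a G1 kinase, held 4 copies.
Cdk4 (chr10:127063353-127063378, plus strand): ggcagccagtCACGTGccacacagcg
Cdk4 (chr10:127063407-127063432, plus strand): gtcaaggggtCACGTGggatagcaac
Cdk4 (chr10:127063427-127063452, plus strand): agcaacaggtCACGTGgccgtcaggg
Cdk4 (chr10:127063514-127063539, plus strand): gggtgaagatCACGTGtccagaacgt

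Genes tied to Mlx and its partners are shown for comparison. Mlxipl is a partner of Mlx, and Khk (ketohexokinase) and Arrdc4 (an arrestin-domain protein) are targets of the Mlx pairs.
Mlxipl (chr5:135089782-135089807, plus strand): ggctgccatcCACGTGctaaggagag
Khk (chr5:30921478-30921503, plus strand): cgttccccgtCACGTGacaccgttaa
Arrdc4 (chr7:68749416-68749441, minus strand): aggtcctgtgCACGTGcactatggtg

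The deleted motif in Pkd1 is the binding site of the miR-17 family, whose cluster is itself a classical Myc target. The mature miRNA is shown with its seed, bases 2 to 8, in capitals. Mature miRNAs were not measured in these libraries.
mmu-miR-17-5p (chr14:115043684-115043706, plus strand): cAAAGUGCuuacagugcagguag

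Total counts lay between 20.4 M and 30.8 M per library (M for 1000000). All 10 proximal tubule markers had counts in every library, as in kidney. Skeletal muscle transcripts set libraries 20 to 27 apart, that is, the 5 RC/- D53 mice together with replicates 20 to 22 of RC/- D18. The summed level of 10 muscle genes was 195 to 252 CPM in these 8 libraries and 22.8 to 41.02 CPM in the other 16. The labels name no batch, and no unedited and no RC/+ library lies in that set. For the results that rest on these libraries, Myc and the counts of members called are also given with the set as a covariate. The RC/- D53 group has no library outside the set, so it cannot be shown without it.

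Levels of different genes were compared as CPM per kilobase of exon, which corrects for length. By the median over 24 libraries the order was Mxd4 (23.6), Max (23.3), Mlx (14.9), Mxi1 (11.3), Mnt (7.70), Myc (5.53), Mga (4.14), Mycn (3.24), Mxd1 (2.56) and Mycl (1.12). Of the 9 pairs of neighbours in this order, only Max and Mlx had ranges that did not overlap. Mxd4 and Max could not be ordered by library, since Mxd4 was the higher in 15 of 24. Myc lay below Mnt in 18 of 24 libraries, and the exceptions were every RC/- library and RC/- D53 replicate 27. The other 7 neighbouring pairs kept their order in 21 to 24 libraries. The shared partner Max was thus more abundant per length than any Myc family transcript, and the Mxd4 repressor transcript stood at the same level as Max.

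The members differed in how far they varied. From the lowest to the highest of the 24 libraries, Mycl spanned 7.32-fold and Myc 5.81-fold. Max spanned 1.31-fold, and so did Mxi1. Mga spanned 1.33-fold, and the remaining 5 members spanned 1.48-fold to 1.63-fold.

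**Figure D1:**
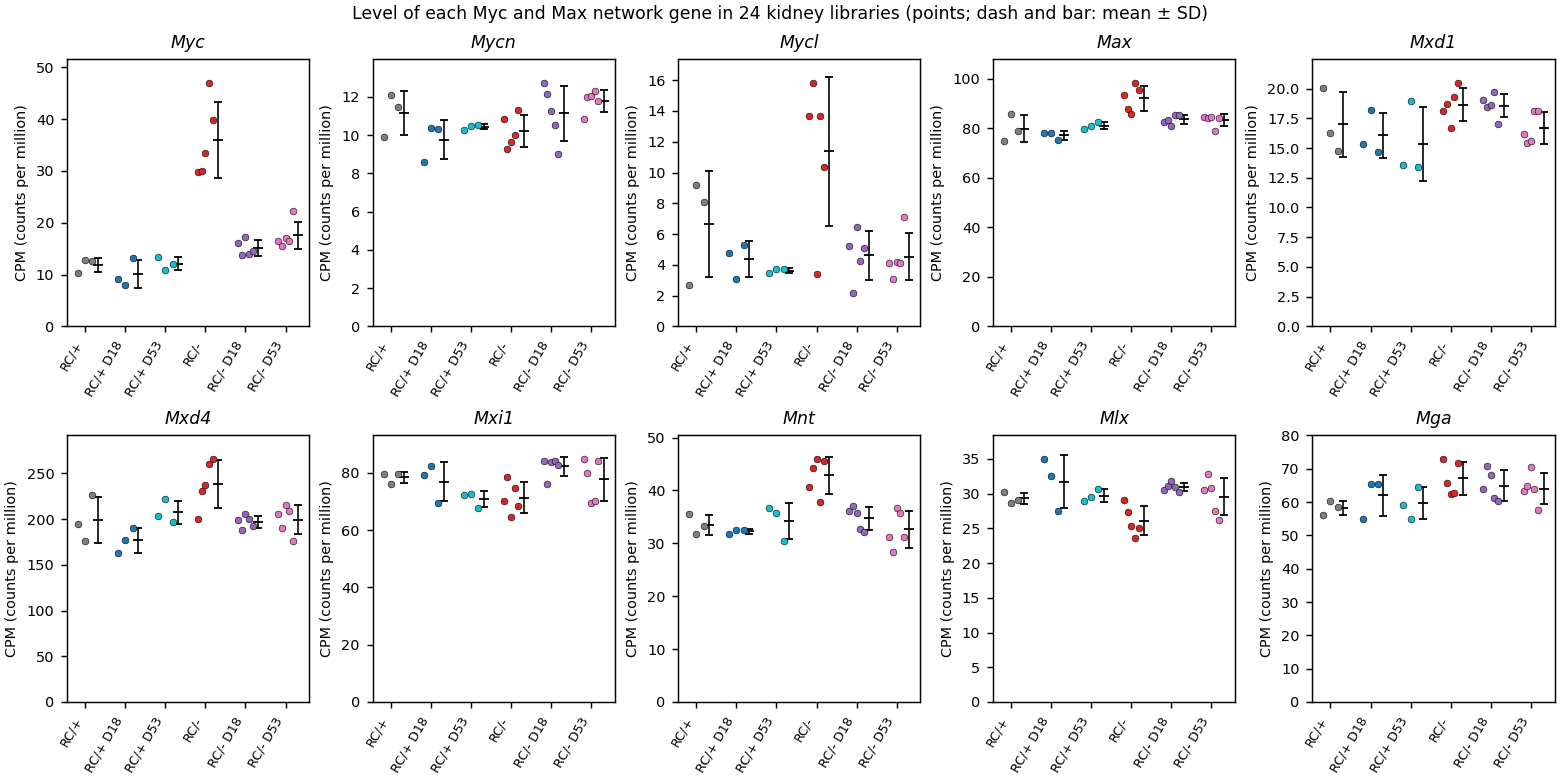
Level of each member in CPM (vertical axis, from 0) in the 6 groups (horizontal axis). Each point is 1 library, and the dash with bars is the group mean ± SD (n = 3 in the RC/+ groups and n = 5 in the RC/- groups). Myc in the RC/- libraries, from 29.8 CPM upward, lies above every other library, and Mycl has the widest fold range over the 24 libraries, 7.32.

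Comparison of RC/- with RC/+ kidneys asks what differs in the cystic genotype. Myc, the growth-driving activator of the network, was about 3 times as abundant in the cystic kidneys, and no other member was called with a fold above 1.28. Mycl, at 1.71-fold with a wide interval, did not pass. Max, Mxd4 and Mnt, the partner and a pair of Max-binding repressors, were also higher with scaling by total counts, each by 1.28-fold or less. No member was called lower under that scaling. Thus 4 of 10 members passed at an adjusted p below 0.05 in limma-trend, all higher, and 37.6% of all genes tested passed in this comparison (25.5% higher and 12.2% lower). Without adjustment the p was below 0.05 for 5 members, Mga in addition, and for 45.5% of all genes. Over the members the log2 differences had a median of 0.20, and over all genes 0.14.

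Myc (ENSMUSG00000022346, GRCm38 chromosome 15, 61985391 to 61990374, plus strand) had 10.4, 12.8 and 12.5 CPM in the 3 RC/+ kidneys. In the 5 RC/- kidneys it had 29.8, 30.03, 33.4, 46.9 and 39.8 CPM. Every RC/- library exceeded all 19 others, the highest of which was at 22.2 CPM. Counts of Myc ranged from 198 to 1117 per library, so counting error was small beside these differences. The fold was 2.98, or 1.57 on the log2 scale with a 95% interval of 1.25 to 1.90 (adjusted p 2.63e-08). This difference lay at percentile 97.01 of all genes tested. It passed in all 17 alternative settings, where it lay between 1.44 and 1.64.

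The other Myc family members behaved differently from each other. Mycn (ENSMUSG00000037169, chromosome 12, 12936093 to 12941914), which is known for its part in the developing kidney, lay between 9.88 and 12.1 CPM in RC/+ and between 9.25 and 11.3 CPM in RC/-. Its log2 difference was -0.13 (95% interval -0.35 to 0.10, adjusted p 0.400 in limma-trend). Mycl (ENSMUSG00000028654, chromosome 4, 122995652 to 123002485) had 2.69, 9.20 and 8.07 CPM in RC/+ and 13.7, 15.8, 3.42, 13.6 and 10.4 CPM in RC/-. Each group held 1 low library, RC/+ replicate 4 and RC/- replicate 15, and the groups overlapped. The log2 difference of Mycl was 0.78 (95% interval -0.09 to 1.64, adjusted p 0.154). Without RC/- replicate 15 it was 1.16 (adjusted p 0.0121), and without RC/+ replicate 4 it was 0.23 (adjusted p 0.737). The size of the Mycl difference thus rested on these low libraries, and it passed in 1 of 17 alternative settings.

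Max (ENSMUSG00000059436, chromosome 12, 76937269 to 76962201) had 74.8, 85.7 and 79.0 CPM in RC/+ and 93.3, 87.8, 85.8, 98.1 and 95.2 CPM in RC/-. The groups did not overlap, but RC/+ replicate 5 and RC/- replicate 15 nearly touched. The log2 difference was 0.21 (95% interval 0.09 to 0.32, adjusted p 0.00516), at percentile 55.9 of all genes. Its place on this scale was thus near the middle of all genes.

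Mxd4 (ENSMUSG00000037235, chromosome 5, 34173883 to 34187720), the most abundant repressor transcript, had 194, 176 and 227 CPM in RC/+ and 199.8, 231, 237, 260.4 and 266 CPM in RC/-. The groups overlapped, and the log2 difference was 0.26 (95% interval 0.08 to 0.45, adjusted p 0.0220). Mnt (ENSMUSG00000000282, chromosome 11, 74830920 to 74845725), which pairs with Max in proliferating and resting cells alike, had 35.5, 31.8 and 33.4 CPM in RC/+. In RC/- it had 40.7, 44.3, 45.95, 37.9 and 45.5 CPM, with no overlap. The log2 difference of Mnt was 0.35 (95% interval 0.17 to 0.53, adjusted p 0.00273), at percentile 68.04.

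The remaining repressors did not pass. Mxd1 (ENSMUSG00000001156, chromosome 6, 86647042 to 86669161), linked to differentiation, had a log2 difference of 0.14 (95% interval -0.10 to 0.38, adjusted p 0.371). Mxi1 (ENSMUSG00000025025, chromosome 19, 53310518 to 53375810) had -0.14 (95% interval -0.30 to 0.02, adjusted p 0.161). Mga (ENSMUSG00000033943, chromosome 2, 119897228 to 119969581), which joins a Polycomb complex, had 56.1 to 60.2 CPM in RC/+ and 62.6 to 72.9 CPM in RC/-. Those ranges did not overlap, yet the log2 difference of Mga, 0.20, missed the threshold narrowly (adjusted p 0.0535). It passed without RC/- replicate 15 (0.22, adjusted p 0.0414) or replicate 16 (0.22, adjusted p 0.0403) and with sex as a covariate (0.19, adjusted p 0.0479), and in no other of 17 alternative settings. With TMM factors it was 0.06 (adjusted p 0.538). Complete separation of the libraries was seen in 4 of 10 members (Myc, Max, Mnt and Mga) and in 37.6% of all genes.

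Mlx (ENSMUSG00000017801, chromosome 11, 101087277 to 101092207) had 30.2, 28.7 and 29.1 CPM in RC/+ and 29.1, 27.3, 25.4, 23.6 and 25.1 CPM in RC/-. Its log2 difference was -0.17 (95% interval -0.34 to 0.00, adjusted p 0.112). Of the exon bases of Mlx, 19.3% are shared with Psmc3ip on the opposite strand. Mxd4 and Mxi1 share 6.06% and 2.84% with Gm42846 and Gm10197. The strand setting of the counting is not given in the sources used here, so reads from these overlaps cannot be assigned.

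The scaling of the libraries changed the calls of the modestly changed members. With TMM factors (trimmed mean of M values, which centre the bulk of genes) the median log2 difference of all genes moved from 0.14 to 0.01. The members called were then 1 higher and 3 lower, in place of 4 higher and 0 lower. Of all genes 34.3% were called in either direction with TMM factors. Myc was the one that stayed higher, at 1.44 (adjusted p 9.39e-08). Max (0.07, adjusted p 0.469) and Mxd4 (0.12, adjusted p 0.307) lost their calls, and Mnt had 0.21 (adjusted p 0.0552). Mlx (-0.31, adjusted p 0.00733), Mxi1 (-0.28, adjusted p 0.0152) and Mycn (-0.26, adjusted p 0.0364) were called lower. Without RC/+ replicate 4, scaled by total counts, 2 members were called, since Max and Mxd4 dropped out. Of all genes 32.2% were called in that run.

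**Figure D2:**
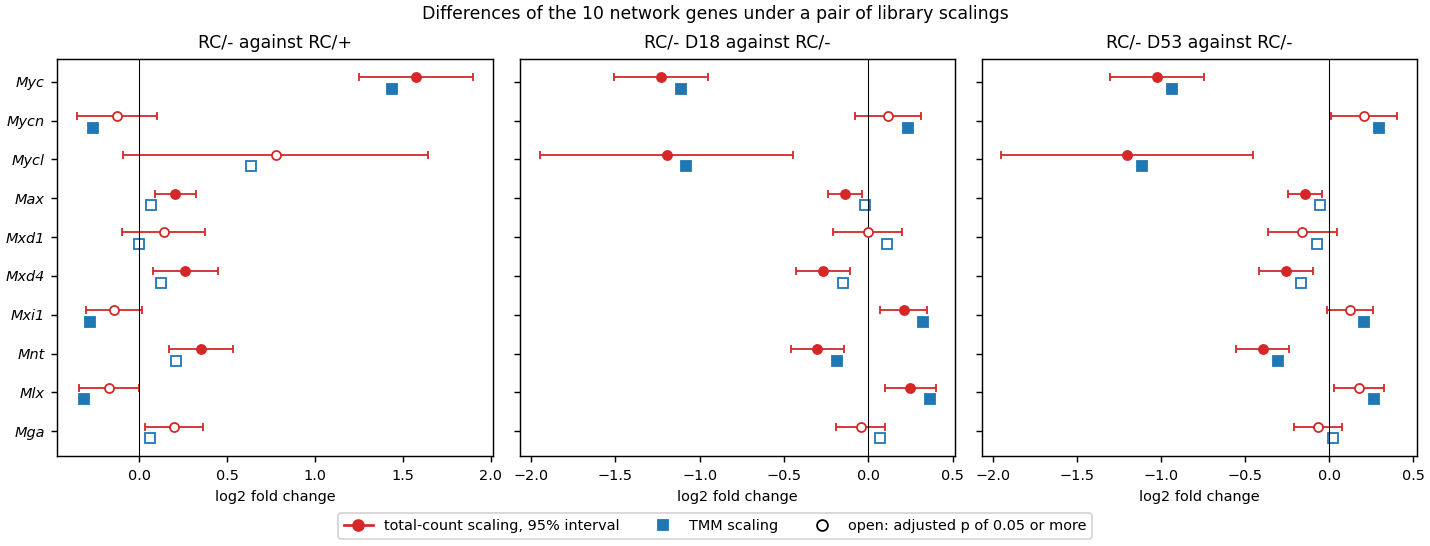
Log2 fold change (horizontal axis) of each member (rows) in 3 comparisons. Red circles with bars are estimates scaled by total counts with 95% intervals, blue squares are estimates with TMM factors, and open symbols have an adjusted p of 0.05 or more. Myc keeps its distance from 0 under both scalings, with 1.57 and 1.44 in RC/- against RC/+, while Max moves from 0.21 to 0.07.

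Markers of other cell types moved in the same comparison. All 11 macrophage markers were higher, with a summed level of 295 to 314 CPM in RC/+ and 632 to 1143 CPM in RC/-. All 10 proximal tubule markers were lower, at 8775 to 9367 CPM in RC/+ and 1987 to 4802 CPM in RC/-. Of 8 fibroblast markers 5 were higher and 0 lower, of 10 collecting duct markers 6 were higher and 2 lower, and of 16 cell cycle genes 1 was higher. Of 8 thick ascending limb and distal convoluted tubule markers 1 was higher and 6 lower, and of 5 podocyte markers 1 was higher and 4 lower. Of 5 endothelial markers 3 were lower, of 8 lymphocyte markers 1 was lower, and of 9 muscle markers tested 1 was lower. No macrophage, proximal tubule, fibroblast, collecting duct or cell cycle marker was at 0 in any library. The share of counts from mitochondrial genes was 5.93% to 6.55% in RC/+ and 3.16% to 4.05% in RC/-, without overlap. The part of the markers and of that share in the differences of Myc and the other members was not tested. In whole kidney, fewer cells of a type and less RNA per cell cannot be told apart.

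Ratios taken within each library describe the balance of the network. The ratio of Myc to Max, each in CPM per kilobase, was 0.197 ± 0.0131 in RC/+ (SD, n = 3) and 0.516 ± 0.0831 in RC/- (SD, n = 5). Myc supplied 46.9% ± 3.61 of the summed Myc family level in RC/+ and 68.9% ± 6.49 in RC/-. The summed repressors (Mxd1, Mxd4, Mxi1, Mnt and Mga) stood at 5.28 ± 1.16 times the Myc family in RC/+ and at 2.90 ± 0.357 times in RC/-. The libraries of these groups did not overlap in any of the 3 quantities. A ratio within a library does not depend on how libraries are scaled to each other.

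**Figure D3:**
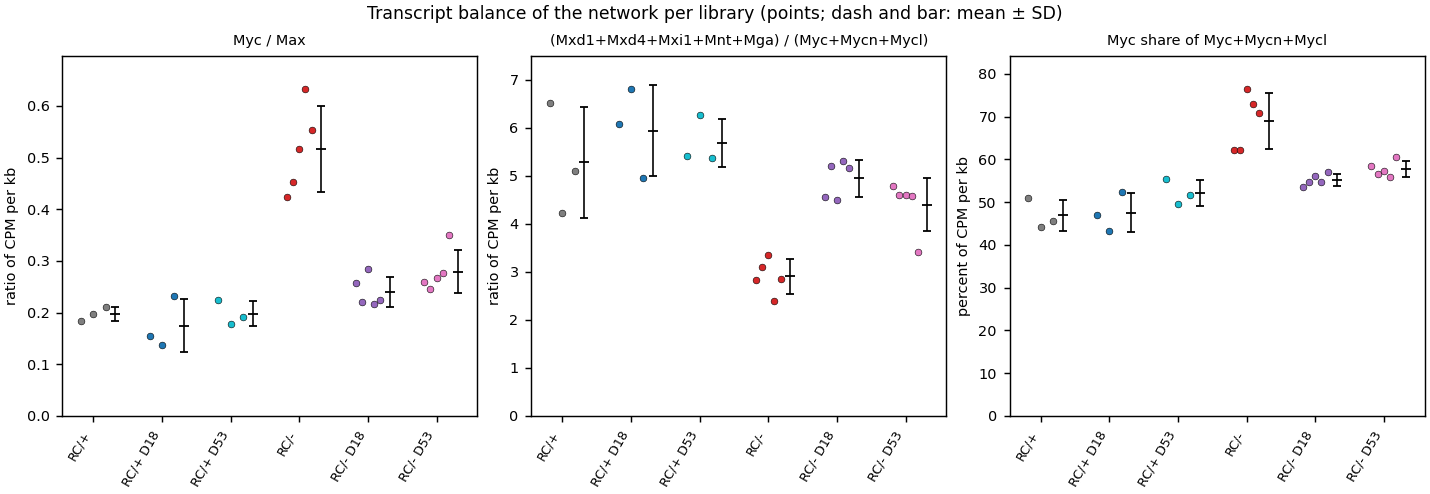
Ratio of Myc to Max, ratio of the 5 repressor transcripts to the Myc family, and Myc as a percent of the Myc family (vertical axes, all from CPM per kilobase) in the 6 groups. Points are libraries, and the dash with bars is the mean ± SD. RC/- libraries hold the highest Myc to Max ratios, around 0.516, and the lowest repressor ratios, around 2.90.

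The makeup of the repressor transcripts varied less than Myc. Mxd4 made up 48.3% ± 3.12 of the summed repressor level in RC/+ and 51.2% ± 2.92 in RC/-, while the means of the remaining groups ran from 45.9% to 50.6%. The summed repressor level was 48.4 ± 3.24 CPM per kilobase in RC/+ and 54.9 ± 3.30 in RC/-, with overlapping libraries. The ratio of Mlx to Max was 0.664 ± 0.0624 in RC/+ and 0.512 ± 0.0564 in RC/-, and those libraries did not overlap.

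Genes known to be activated by Myc were read from a list of 29, many of them in ribosome production. In RC/- against RC/+, 19 were higher, 4 lower and 6 did not pass, while 25.5% of all genes were higher and 12.2% lower. Their median log2 difference was 0.31, against 0.14 for all genes. The largest increases past the threshold were in Cad (0.68, adjusted p 1.87e-06), the enzyme that starts pyrimidine synthesis, and Cdk4 (0.64, adjusted p 9.59e-05). The largest decreases were in Hspd1 (-0.60), the mitochondrial chaperonin, and Shmt2 (-0.53), a mitochondrial enzyme of the folate cycle. With TMM factors 8 were higher and 4 lower, and the median was 0.17 beside 0.01 for all genes. Of all genes 34.3% were called in either direction under that scaling.

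Genes known to be repressed by Myc did not move one way. Of 7, 3 were higher and 2 lower, with a median of 0.27, while 25.5% of all genes were higher and 12.2% lower. Cdkn2b (1.49, adjusted p 0.00119), an inhibitor of G1 kinases, and the stress gene Gadd45a (0.46, adjusted p 0.00318) were higher. Ndrg2 (-0.81) and Ndrg1 (-0.73), genes named for their repression downstream of Mycn, were lower.

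Among genes that set the stability and output of Myc protein, 7 of 10 turnover and control genes were higher and 1 lower with total-count scaling, with a median of 0.35. Over all genes 25.5% were higher and 12.2% lower. Fbxw7 (0.69, adjusted p 3.20e-05), the ubiquitin ligase subunit that marks Myc for destruction, and Usp28 (0.45), which removes that mark, were the largest increases. Ppp2r5a (-0.38), a phosphatase subunit, was the decrease. Of 12 coactivator genes 11 were higher and 0 lower, led by the scaffold Trrap (0.53) and the remodelling ATPase Ep400 (0.44). With TMM factors these counts were 4 higher and 1 lower of 10, and 5 higher and 0 lower of 12, beside 34.3% of all genes in either direction.

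Partners of the repressor side were read in the same way. Of 9 genes of the Sin3 corepressor, which the Mxd proteins and Mnt recruit, 4 were higher and 0 lower, with a median of 0.14, the same as over all genes. Hdac1 (0.40) and Sin3a (0.34) had the largest increases. With TMM factors 2 were higher and 2 lower. Of 9 Polycomb partners of Mga 3 were higher and 0 lower, led by Rnf2 (0.45) and Tfdp1 (0.44). The share of all genes called in either direction was 37.6%.

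The Mlx side of the network moved in mixed directions. Mlxip, a partner of Mlx, lay at 34.1 to 43.3 CPM in RC/+ and 49.3 to 58.3 CPM in RC/- (log2 difference 0.51, adjusted p 7.67e-05). Mlxipl lay at 70.9 to 82.2 CPM in RC/+ and 31.4 to 59.3 CPM in RC/- (-0.85, adjusted p 0.000168). Both passed with TMM factors too, at 0.37 for Mlxip and -0.99 for Mlxipl. Mxd3, a repressor expressed in dividing cells, had 0.59 (adjusted p 0.136) and did not pass. Of 6 targets of the Mlx pairs 2 were higher and 4 lower. Arrdc4 (0.66) and Txnip (0.38), a brake on glucose uptake, were higher, and G6pc (-2.35) and Khk (-1.21), enzymes of gluconeogenesis and fructose use, were lower. With TMM factors 1 was higher and 4 lower, as Txnip (0.24, adjusted p 0.207) no longer passed. Proximal tubule markers, given above, were lower in the same libraries, and G6pc and Khk are expressed in that segment. The part of the markers in the differences of G6pc and Khk was not tested.

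Noncoding transcripts tied to Myc did not pass in this comparison. Pvt1, the neighbour of Myc, had 17 to 27 counts per library in RC/+ and 27 to 50 in RC/- (log2 difference 0.63, adjusted p 0.0980). Mir17hg, the host transcript of the miR-17 cluster, lay at 8.71 to 9.47 CPM in RC/+ and 9.70 to 13.4 CPM in RC/- (0.28, adjusted p 0.102). In CPM the libraries of neither transcript overlapped between these groups, and the same held for 37.6% of all genes. In noncystic edited kidneys Mir17hg also lay above RC/+, at 9.68 to 12.3 CPM in D18 and 9.76 to 10.7 CPM in D53. The host transcript is not a measure of the mature miRNA.

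**Figure D4:**
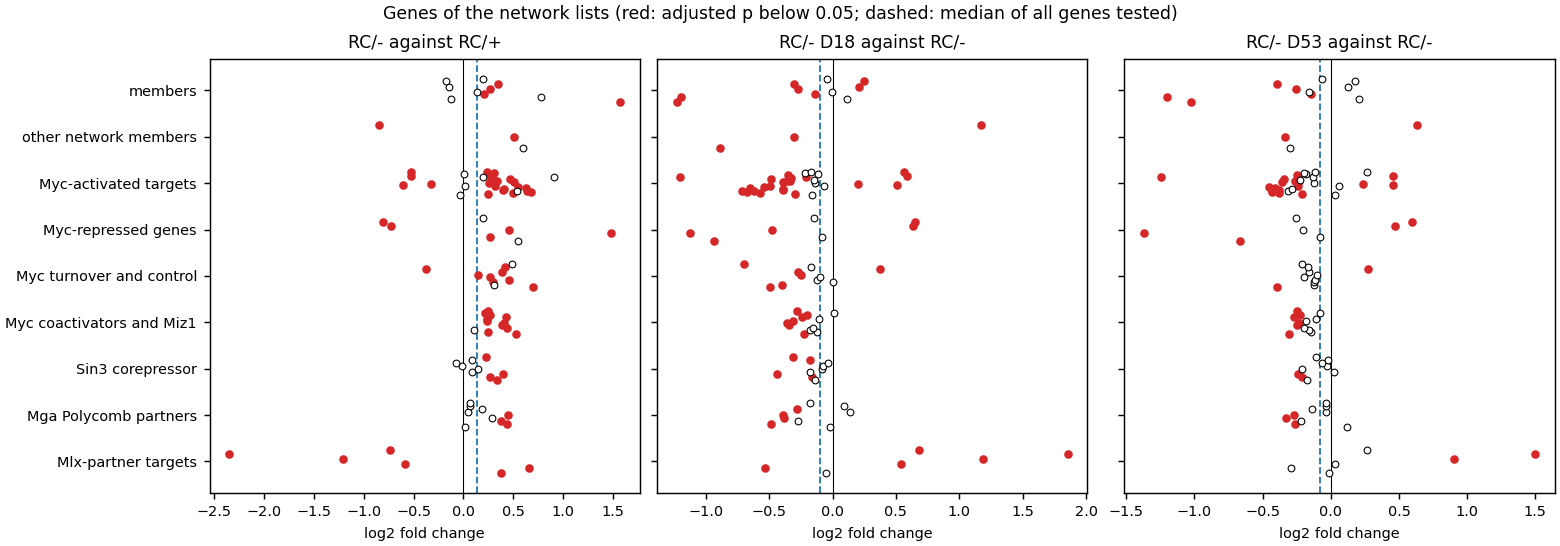
Log2 fold change (horizontal axis) of each gene in the network lists (rows) in 3 comparisons. Red points have an adjusted p below 0.05, open points do not, and the dashed line is the median of all genes tested, 0.14 in RC/- against RC/+. Most Myc-activated targets lie right of that line in RC/- against RC/+ and left of it in RC/- D18 against RC/-.

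Comparison of RC/- D18 with RC/- asks what deletion of the motif changes in the cystic genotype, and the same RC/- libraries served again as the reference for D53. In both edited lines Myc and Mycl were lower than in unedited RC/- kidneys by more than 1 on the log2 scale. Mnt, Mxd4 and Max were lower by 0.14 to 0.39. In D18, Mxi1 and Mlx were higher. In RC/- D18 against RC/-, 7 members passed, 2 higher and 5 lower, while 41.2% of all genes passed (14.3% higher and 26.9% lower). In RC/- D53 against RC/-, 5 members passed, 0 higher and 5 lower, while 30.2% of all genes passed (11.3% higher and 18.9% lower). Without adjustment 7 members had a p below 0.05 in each comparison, beside 48.3% of all genes for D18 and 39.2% for D53.

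Myc had 16.1, 13.8, 17.3, 13.9 and 14.5 CPM in the 5 RC/- D18 kidneys and 16.5, 15.6, 17.01, 16.4 and 22.2 CPM in the 5 RC/- D53 kidneys. All 10 lay below the lowest RC/- library, at 29.8 CPM. RC/- D53 replicate 27 was the highest of them. The log2 differences from RC/- were -1.23 (95% interval -1.51 to -0.95, adjusted p 1.08e-07) in D18 and -1.02 (95% interval -1.30 to -0.74, adjusted p 3.40e-06) in D53. With libraries 20 to 27 as a covariate they were -1.24 (adjusted p 2.02e-05) and -1.05 (adjusted p 0.00884). Without RC/- D18 replicates 20 to 22 the D18 value was -1.24 (adjusted p 3.77e-05). Myc was past the threshold in every alternative run for both comparisons.

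Mycl had 5.21, 2.16, 6.43, 4.27 and 5.08 CPM in RC/- D18 and 4.15, 3.05, 4.18, 4.14 and 7.11 CPM in RC/- D53. RC/- replicate 15, at 3.42 CPM, fell inside both ranges, and the other 4 RC/- libraries lay above them at 10.4 CPM or more. The log2 difference was -1.20 in each line (adjusted p 0.0101 in D18 and 0.0139 in D53). The 95% interval was wide, -1.95 to -0.45 in both. With libraries 20 to 27 as a covariate the D53 value was -1.81 (adjusted p 0.0798). Mycn had 0.12 in D18 (95% interval -0.08 to 0.31) and 0.21 in D53 (95% interval 0.01 to 0.40), and neither passed.

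Max had 82.7, 83.4, 80.9, 85.3 and 85.5 CPM in RC/- D18 and 84.6, 84.2, 84.4, 78.8 and 83.9 CPM in RC/- D53. All 10 lay below the lowest RC/- library, by a narrow margin. The log2 differences were -0.14 in both lines (adjusted p 0.0250 and 0.0261). With TMM factors they were -0.02 and -0.06 (adjusted p 0.803 and 0.506).

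Mnt had 36.2, 36.99, 35.7, 32.6 and 32.1 CPM in RC/- D18 and 31.2, 28.5, 36.8, 35.8 and 31.2 CPM in RC/- D53. All 10 lay below the 5 RC/- libraries, the lowest of which was at 37.9 CPM. The log2 differences of Mnt were -0.30 (95% interval -0.46 to -0.14, adjusted p 0.00249) and -0.39 (95% interval -0.55 to -0.24, adjusted p 0.000330). Both passed with TMM factors, at -0.19 and -0.31. Under the covariate for libraries 20 to 27 the values of Mnt were -0.22 and -0.26 and did not pass (adjusted p 0.1004 and 0.251).

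Mxd4 had 199, 188, 205, 200.4 and 193 CPM in RC/- D18 and 206, 189.8, 215, 209 and 176 CPM in RC/- D53. RC/- replicate 13, at 199.8 CPM, overlapped both. The log2 differences were -0.27 (adjusted p 0.00657) and -0.26 (adjusted p 0.0130), and with TMM factors -0.15 and -0.17 (adjusted p 0.119 and 0.105).

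Mxi1 and Mlx ran the other way. Mlx had 30.6, 31.1, 31.9, 31.02 and 30.2 CPM in RC/- D18, all above the 5 RC/- libraries. The log2 difference of Mlx was 0.25 in D18 (95% interval 0.10 to 0.40, adjusted p 0.00734) and 0.18 in D53 (adjusted p 0.0647). Mxi1 had 84.2, 76.1, 83.9, 83.96 and 82.8 CPM in RC/- D18, and only replicate 19 overlapped RC/-. Its log2 difference was 0.21 in D18 (adjusted p 0.0143) and 0.12 in D53 (adjusted p 0.178). With TMM factors both genes were called higher in both lines, at 0.33 and 0.21 for Mxi1 and at 0.37 and 0.27 for Mlx. Mxd1 and Mga did not pass in either line. Mxd1 had -0.00 (95% interval -0.21 to 0.20) in D18 and -0.16 (-0.37 to 0.05) in D53. Mga had -0.05 (-0.19 to 0.10) and -0.07 (-0.21 to 0.08).

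Complete separation from RC/- was found for 4 of 10 members in D18 (Myc, Max, Mnt and Mlx), against 27.8% of all genes. In D53 it was found for 3 of 10 (Myc, Max and Mnt), against 18.8% of all genes. With TMM factors 3 members were higher (Mycn, Mxi1 and Mlx) and 3 lower (Myc, Mycl and Mnt) in each line. Of all genes 39.2% were called in D18 and 28.1% in D53 under that scaling. With libraries 20 to 27 as a covariate 3 members passed in D18 (Myc, Mycl and Mxd4) and 1 in D53 (Myc). Of all genes 27.5% passed in D18 and 7.96% in D53 with that covariate. The median of all genes was -0.10 in D18 and -0.08 in D53 with total counts, and 0.00 in both with TMM factors.

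On average the edited cystic kidneys lay between RC/- and RC/+ in the ratio of Myc to Max, the repressor ratio and the Myc share. The mean ratio of Mlx to Max (0.667) and Mxd4 share of repressors (46.8%) lay outside that span in RC/- D18. In RC/- D53 they lay inside it (0.639 and 48.4%). The ratio of Myc to Max averaged 0.240 ± 0.0294 for D18 (SD, n = 5) and 0.279 ± 0.0411 for D53 (SD, n = 5), and all 10 libraries lay below every RC/- library. The repressors stood at 4.95 ± 0.385 and 4.40 ± 0.555 times the Myc family. RC/- D53 replicate 27 had the lowest repressor ratio of the edited cystic libraries, 3.42, close to the highest of RC/-, 3.35. Myc made up 55.2% ± 1.40 and 57.8% ± 1.78 of the Myc family. Those shares did not overlap with RC/-, where the lowest was 62.2%. In RC/- D18 replicates 18 and 19, which lie outside the muscle-rich set, the ratio of Myc to Max was 0.257 and 0.220 and the repressor ratio 4.56 and 5.21.

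The Myc-activated targets ran opposite to their direction in RC/- against RC/+, a comparison that shares the RC/- libraries. In D18, 4 were higher and 18 lower, with a median of -0.33 against -0.10 for all genes. In D53, 3 were higher and 15 lower, with a median of -0.24 against -0.08. Of all genes 14.3% were higher and 26.9% lower in D18, and 11.3% were higher and 18.9% lower in D53. Cad had -0.68 in D18 and -0.43 in D53, and Cdk4 had -0.72 and -0.43. Hspd1 was higher by 0.51 and 0.46 on the log2 scale. With TMM factors the counts were 4 higher and 16 lower in D18 and 5 higher and 9 lower in D53. The covariate for libraries 20 to 27 gave 3 and 14 in D18 and 0 and 4 in D53. Of all genes 39.2% and 28.1% were called with TMM factors, and 27.5% and 7.96% with the covariate.

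Other lists gave smaller counts. Of 7 Myc-repressed genes 2 were higher and 3 lower in D18, and 2 higher and 2 lower in D53, with Cdkn2b at -1.12 and -1.37. Of 12 coactivators 0 were higher in either line, and 7 were lower in D18 and 6 in D53. Of 10 turnover genes 1 was higher in each line, and 5 and 1 were lower, with Fbxw7 at -0.49 and -0.39. Of 9 Sin3 genes 4 and 2 were lower, of 9 Mga partners 4 and 3 were lower, and none was higher. Over all genes 14.3% were higher and 26.9% lower in D18, and 11.3% were higher and 18.9% lower in D53. With TMM factors 4 coactivators were lower in each line, 1 turnover gene was lower in each, and 2 and 1 Sin3 genes were lower. Of the Mga partners, TMM factors left 1 higher and 2 lower in D18 and 1 higher and 0 lower in D53. The shares of all genes called under that scaling were 39.2% in D18 and 28.1% in D53.

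Mlxip was lower in D18 (-0.30, adjusted p 0.00317) and D53 (-0.33, adjusted p 0.00209), and Mlxipl was higher (1.17, adjusted p 3.22e-07, and 0.63, adjusted p 0.00112). Mxd3 was lower in D18 (-0.89, adjusted p 0.00931) and had -0.30 in D53 (adjusted p 0.449). Of 6 targets of the Mlx pairs 4 were higher and 1 lower in D18 and 2 higher and 0 lower in D53. G6pc had 1.85 and 1.497, and Khk 1.19 and 0.91. Mlxipl also passed in both lines with libraries 20 to 27 as a covariate, while Mlxip (adjusted p 0.153 and 0.529) and Mxd3 in D18 (-0.46, adjusted p 0.331) did not. Pvt1 was lower in D18 (-0.91, adjusted p 0.00588) with 9 to 34 counts per library, and had -0.45 in D53 (adjusted p 0.202). Mir17hg had 0.15 and 0.14 and did not pass. In noncystic kidneys Mlxipl lay at 96.1 to 104.8 CPM in RC/+ D18, above all RC/+ libraries at 70.9 to 82.2 CPM. In RC/+ D53 it lay at 66.6 to 76.4 CPM. The differences of Mlxipl between these groups and RC/+ did not pass in limma-trend.

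Marker levels moved here too. All 11 macrophage markers were lower in both lines, with sums of 366 to 399.7 CPM in RC/- D18 and 402 to 551 CPM in RC/- D53. All 10 proximal tubule markers were higher in both, and 12 of 16 cell cycle genes were lower in D18 and 0 in D53. Under the covariate for libraries 20 to 27, 1 cell cycle gene was lower in D18, while 10 macrophage markers were lower in D18 and 8 in D53. Fibroblast markers were lower for 6 of 8 in D18 and 5 of 8 in D53. Thick ascending limb and distal convoluted tubule markers were higher for 6 of 8 in each line, and podocyte markers for 4 of 5 in each, with 1 of each list lower in D18 and 1 podocyte marker lower in D53. Of 10 collecting duct markers 2 were higher in each line, and 6 were lower in D18 and 3 in D53. The share of mitochondrial counts was 5.38% to 6.78% in RC/- D18 and 4.88% to 5.71% in RC/- D53, above every RC/- library. The part of these in the members' differences was not tested. The skeletal muscle sum, 195 CPM or more in libraries 20 to 27, was 34.96 and 41.02 CPM in RC/- D18 replicates 18 and 19. In those 2 libraries Myc was at 16.1 and 13.8 CPM, beside 13.9 to 17.3 CPM in replicates 20 to 22.

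Comparison of edited with unedited RC/+ kidneys asks whether the deletion alters noncystic kidneys. No member passed in limma-trend in either line (0 of 10 in each). Of all genes 0.00443% passed for D18, all lower, and 0% for D53. The unadjusted p was below 0.05 for 0 members in either line, beside 4.49% of all genes for D18 and 2.33% for D53, and edgeR and DESeq2 also called 0 members in both. Myc had 9.14, 8.07 and 13.2 CPM in RC/+ D18 and 13.5, 10.9 and 11.97 CPM in RC/+ D53, overlapping RC/+. The log2 differences of Myc were -0.25 (95% interval -0.61 to 0.11) and 0.03 (95% interval -0.33 to 0.39). With 3 libraries a group these intervals leave room for moderate differences. Mycl had 4.79, 3.06 and 5.27 CPM in RC/+ D18 and 3.45, 3.71 and 3.73 CPM in RC/+ D53, with log2 differences of -0.45 (95% interval -1.42 to 0.51) and -0.68 (-1.65 to 0.29). The libraries were completely separated for 0 members in D18 and for 1, Mxi1, in D53, against 9.95% and 8.84% of all genes. Mxi1 had 72.2, 72.6 and 67.5 CPM in RC/+ D53, below 76.2 to 79.5 CPM in RC/+ (log2 difference -0.15, 95% interval -0.32 to 0.03).

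Comparison of RC/- with RC/+ kidneys inside an edited line takes its means from that line, while the unedited libraries enter the estimate of spread. In neither line did a member pass after adjustment in limma-trend. For D18 0.266% of all genes passed (0.261% higher and 0.00443% lower), and for D53 2.6% (2.45% higher and 0.146% lower). The unadjusted p was below 0.05 for 2 members in D18 (Myc and Max, beside 8.91% of all genes) and for 1 in D53 (Myc, beside 13.3%). EdgeR and DESeq2 called 0 members in each line. Myc was higher in every RC/- D18 library than in every RC/+ D18 library, the nearest being 13.8 and 13.2 CPM. The same held in D53, where the nearest were 15.6 and 13.5 CPM. The log2 differences of Myc were 0.60 (95% interval 0.28 to 0.92, adjusted p 0.131) in D18 and 0.53 (95% interval 0.20 to 0.85, adjusted p 0.0763) in D53, folds of 1.52 and 1.44. Without RC/+ D18 replicate 9, the highest of its group, the D18 value was 0.81 (adjusted p 0.0233). With only the compared groups in the model the D53 value had an adjusted p of 0.0334. With libraries 20 to 27 as a covariate Myc had 0.59 (adjusted p 0.257) in D18 and 0.50 (adjusted p 0.333) in D53, and 0 members passed in either line, beside 11 of 22570 genes for D18 and 287 for D53.

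Separation inside the line was also complete for Max in D18 (75.2 to 78.2 against 80.9 to 85.5 CPM) and for Mycn in D53 (10.3 to 10.5 against 10.8 to 12.3 CPM). With Myc these make 2 of 10 members in each line, beside 5.76% of genes for D18 and 11.6% for D53. Max had a log2 difference of 0.12 (adjusted p 0.559) and Mycn of 0.17 (adjusted p 0.539). None of the 29 Myc-activated targets passed in either line, and their medians were -0.00 in D18 and 0.07 in D53, beside 0.04 for all genes in each. Macrophage markers passed in 0 of 11 in D18 and 8 of 11 in D53, all higher.

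Whether RC/- and RC/+ kidneys differ by unequal amounts in an edited and in the unedited line was asked with interaction contrasts. For Myc the cystic difference was smaller in both edited lines. The difference of differences was -0.97 (95% interval -1.43 to -0.52, adjusted p 0.00330) in D18 and -1.05 (95% interval -1.50 to -0.59, adjusted p 0.00309) in D53. With libraries 20 to 27 as a covariate these were -0.99 (adjusted p 0.0138) and -1.07 (adjusted p 0.0639). In D18, 1 member passed (Myc, lower) beside 17.1% of all genes (6.31% higher and 10.8% lower). In D53, 2 passed (Myc and Mnt, both lower) beside 11.3% of all genes (4.73% higher and 6.55% lower). The unadjusted p was below 0.05 for 2 members in D18 and 5 in D53, beside 29.5% and 25.6% of all genes. Mnt in D53 had -0.42 (95% interval -0.68 to -0.16, adjusted p 0.0297) and did not pass with TMM factors (-0.32, adjusted p 0.0938). Leaving out single libraries raised its adjusted p to between 0.0516 and 0.0898 in 8 cases, namely without RC/+ replicate 5 or 6, RC/+ D53 replicate 10 or 11, RC/- replicate 15 or 17, or RC/- D53 replicate 23 or 24. Mycl had -0.74 (95% interval -1.97 to 0.48) in D18 and -0.52 (-1.74 to 0.71) in D53, too wide to place.

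The edited cystic lines were compared directly as well. No member differed between RC/- D53 and RC/- D18 past the threshold (0 in limma-trend, edgeR and DESeq2, and 0 at an unadjusted p below 0.05, where 13.3% of all genes stood). Of all genes 0.266% passed, 0.244% higher and 0.0222% lower. No member was separated without overlap, beside 2.74% of all genes. Myc had a log2 difference of 0.21 (95% interval -0.07 to 0.49), so a difference of up to 0.49 in favour of D53 was within the interval. It was 0.20 (adjusted p 0.575) with libraries 20 to 27 as a covariate. Max had -0.01 (95% interval -0.11 to 0.09) and Mnt -0.09 (-0.25 to 0.07).

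The genes whose libraries ran closest to Myc were sought among 15115 more abundant genes (mean log2 CPM of 0 or above). Closeness was the root mean square difference over 24 libraries of log2 CPM, each gene centred on its RC/+ mean. The nearest 5 were Ly6e (0.179), Mapk13 (0.193), Dapp1 (0.197), Zbtb42 (0.203) and Camkk2 (0.204), in log2 units. Ly6e, a surface protein anchored in the membrane, had mean levels of 349 CPM in RC/+ and 1039 CPM in RC/-, with 391 for the D18 and 553 for the D53 cystic kidneys. Mapk13, a p38 kinase, had 18.1, 50.8, 20.6 and 25.95 CPM in the same groups.

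Sequence and expression were set side by side over the tested genes that had a promoter window. Of 1493 genes with CACGTG 30.7% were higher and 15.7% lower in RC/- against RC/+, with a median log2 difference of 0.12. Of 12899 genes without it 29.8% were higher and 13.5% lower, with a median of 0.15. In RC/- D18 against RC/- the shares higher were 17.4% with the motif and 15.5% without, and the shares lower 31.2% and 31.5%. In RC/- D53 against RC/- the shares higher were 13.7% and 12.6%, and the shares lower 22.9% and 22.3%. Among the members, Max, Mxd4 and Mnt, which hold the motif shown above, were called higher in RC/- with total counts, and Mlx, which also holds it, was not. With TMM factors Max, Mxd4 and Mnt were not called, and Mlx was called lower. Myc had no promoter window.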

How the data were processed

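Whole-kidney RNA from 24 mice was sequenced in paired reads, and the deposited table holds raw counts of reads per gene. The authors trimmed reads with Trim Galore 0.6.3, aligned them to GRCm38 with STAR 2.5.3a and counted them per gene in the same tool. Which strand column was taken is not given in the sources used here. The table was complete for 24 libraries, and 0 sample columns were left unused. Genes without a symbol (343) held at most 0.0261% of a library's counts.

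CPM (counts per 1000000 counts of the library) were computed from total counts. Log2 CPM (prior count 2) of the 22570 genes with a mean of at least -3 was tested with limma-trend (limma 3.58.1, R 4.3.3) on 6 group means over all libraries, as a 2-sided test with Benjamini-Hochberg adjustment per comparison and a threshold of 0.05. Alternatives used TMM factors and quasi-likelihood tests (edgeR 4.0.16), size factors and Wald tests (DESeq2 1.42.0), no filter, a prior count of 0.5, sex (14 female and 10 male, read from Xist and Ddx3y counts), only the compared groups, libraries 20 to 27 as a covariate, and libraries left out. The procedure was tested on simulated data. Replicates were single mice, so p-values measure the spread between mice. No libraries of the same group were duplicates (chi-square per degree of freedom of 8.45 to 48.2 in 39 pairs within groups). Pairs across groups were not examined.

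The members, gene lists, markers and alternatives were chosen with earlier results of these data known. All members are named, with at most the 2 largest increases and decreases past the threshold in RC/- against RC/+ from each list, lists of 3 or fewer whole, and the 5 genes nearest to Myc. Sequences came from RefSeq tables. A 300-base window was searched for CACGTG.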

Additional observations from a re-analysis of the deposited data

Results flagged for a closer look

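Of 30 member and group combinations with 5 libraries each, 4 held a library that lay far from the others by Dixon's criterion, which chance alone meets in about 1 in 20. RC/- D53 replicate 27 stood above the other 4 libraries of its group for Myc, at 22.2 CPM, and for Mycl, at 7.11 CPM. RC/- D53 replicate 26 was low for Max, at 78.8 CPM. RC/- D18 replicate 19 was low for Mxi1, at 76.1 CPM.

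The cystic difference was unequal between the edited and the unedited lines by the interaction contrast in limma-trend for Myc in D18 (-0.97, adjusted p 0.00330), for Myc in D53 (-1.05, adjusted p 0.00309) and for Mnt in D53 (-0.42, adjusted p 0.0297). Both contrasts share the unedited libraries.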

How the results depend on the processing

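The call of Myc held in every alternative run for RC/- against RC/+ and for either edited cystic group against RC/-. Leaving out single libraries gave 2 to 6 members called in RC/- against RC/+, 0 to 1 in RC/- D18 against RC/+ D18 (1 without RC/+ D18 replicate 9) and 1 to 3 in the D53 interaction. With libraries 20 to 27 as a covariate 3 members were called in RC/- D18 against RC/-, 1 in RC/- D53 against RC/- and 0 in the D53 interaction. The shares of all genes called were 27.5%, 7.96% and 1.79% in that order. Without libraries 20 to 22 of RC/- D18, 3 were called in RC/- D18 against RC/-, beside 27.1% of all genes. The covariate is estimated from RC/- D18 alone, by replicates 18 and 19 against 20 to 22. With only the compared groups 1 member was called in RC/- D53 against RC/+ D53 and 1 in the D53 interaction. Of all genes 3.39% and 11.7% were called there. TMM factors, DESeq2 size factors, edgeR and the DESeq2 Wald test each called 2 in the D18 interaction, where Mycn was added as higher. In the D53 interaction the first 3 of these called 1 and the Wald test 4. The cause of these shifts was not tested. Over all 10 comparisons no member value that passed changed sign. Of the 81 that did not pass, 9 changed sign with TMM factors, 8 with size factors, 9 in edgeR, 8 in the Wald test and 9 with the covariate, and 49 of 780 did when single libraries were left out. In the comparisons of RC/- with RC/+ and of the edited cystic groups with RC/- these were Mxd1 and Mga. Mxd1 in RC/- against RC/+ changed sign with TMM factors (-0.000358), edgeR (-0.00697) and the Wald test (-0.00341). Mxd1 in RC/- D18 against RC/- reached 0.112 with TMM factors, 0.107 with size factors, 0.109 in edgeR, 0.106 in the Wald test, 0.0102 with the covariate and 0.0102 without libraries 20 to 22, and ranged from -0.0427 to 0.0294 when single libraries were left out. Mga in the same comparison reached 0.0707, 0.0654, 0.0680, 0.0647, 0.00884 and 0.00884 in that order. Mga in RC/- D53 against RC/- reached 0.0216 with TMM factors, 0.00902 with size factors, 0.0164 in edgeR, 0.00960 in the Wald test and 0.0254 with the covariate. Removing the filter or using a prior count of 0.5 changed no call or sign. Counts of 198 or more made counting error small for Myc, while Mycl had as few as 45. No paired analysis was possible because the sample labels name no litter or pair of mice.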

Other observations

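With sex added to the limma-trend model, no member passed for male (n = 10) against female (n = 14) kidneys. Adjusted p-values were 0.985 or higher, 0 members had an unadjusted p below 0.05, and 11 of 22570 genes passed. Among members the estimate farthest from 0 was that of Mxd1, at -0.12 on the log2 scale for male minus female, with mean levels of 16.4 CPM in males and 17.9 CPM in females.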
